A study of Oryza sativa with 4 samples.

Results

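The miRNA families mir160, mir164, mir167, mir390 and mir393, which act at successive steps of the auxin pathway, were followed in 4 small RNA libraries of rice seedlings. Members were all list entries whose miRBase family label held the number of one of these families, and each distinct mature sequence was counted once. They came to 12 of the 783 distinct sequences in the 4 lists, or 12 of the 53 that carry any miRBase family label, and to 58 of the 1292 entries, at 17 hairpin loci. The seedlings were of Oryza sativa cv. Pokkali, a salt-tolerant indica rice raised hydroponically. On day 9 they were left without NaCl or received 1.5% NaCl through the root, and root and aerial shoot tissue was taken after 9 h. There was 1 library for each condition, named CR and TR for control and NaCl-treated root and CS and TS for control and NaCl-treated shoot. How many seedlings went into a library is not given in the sources used here.

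Auxin is perceived by F-box receptors of the TIR1/AFB group, which send Aux/IAA repressors to degradation and so free auxin response factors (ARFs) to act on their target genes. In plants, miR393 targets the transcripts of these receptors. miR160 targets ARFs that repress transcription and miR167 targets ARFs that activate it. miR390 starts the production of trans-acting small RNAs from TAS3 transcripts, and those small RNAs target a further group of ARFs. miR164 targets NAC transcription factors, which act downstream of auxin in root and shoot development. A miRNA is cut from one arm of a hairpin transcript, and the strand from the opposite arm, the miRNA*, is released with it and usually decays.

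The 12 sequences are shown because they differ from each other by so little that the name of a family does not tell which of them was counted. The lists write DNA letters, the lines run 5′ to 3′, and the capitals mark the seed, bases 2 to 8. Locus letters follow the study's own names. The 3 miR160 sequences shared 1 seed, and so did the 4 miR167 sequences and both 5p sequences of miR164.
miR160a/b: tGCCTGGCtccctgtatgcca
miR160e: tGCCTGGCtccctgtatgccg
miR160f: tGCCTGGCtccctgaatgcca
miR164b/f: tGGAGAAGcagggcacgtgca
miR164d-5p: tGGAGAAGcagggcacgtgct
miR164d-3p: cATGTGCGctccttctccagc
miR167 20 nt: tGAAGCTGccagcatgatct
miR167 21 nt, 2 loci: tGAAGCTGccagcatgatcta
miR167 21 nt, 5 loci: tGAAGCTGccagcatgatctg
miR167 22 nt: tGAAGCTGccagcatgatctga
miR390: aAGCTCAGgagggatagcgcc
miR393a: tCCAAAGGgatcgcattgatc
Counting from 1 at the 5′ end, miR160a/b differed from miR160e by A21G and from miR160f by T15A, and miR164b/f differed from miR164d-5p by A21T. The 4 miR167 sequences had their first 20 bases in common. The 22 nt form was the 21 nt form of the 5 loci with 1 further base, and the 21 nt forms of the 2 loci and the 5 loci differed by A21G.

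The loci were given on the rice genome IRGSP-1.0. miR160a/b was listed at 3 loci, on chromosome 2 (3511649 to 3511669, minus strand), chromosome 6 (28081049 to 28081069, plus strand) and chromosome 8 (1707574 to 1707594, plus strand). miR160e lay on chromosome 7 (2216844 to 2216864, minus strand) and miR160f on chromosome 8 (24396892 to 24396912, plus strand). miR164b/f was listed at a pair of loci on chromosome 5 (15896243 to 15896263, minus strand, and 23343931 to 23343951, plus strand). The 22 nt form of miR167 was listed at miR167d on chromosome 7 (4166373 to 4166394, minus strand), miR167f on chromosome 10 (14723125 to 14723146, minus strand), miR167g on chromosome 3 (3347692 to 3347713, plus strand), miR167h on chromosome 12 (25480628 to 25480649, plus strand) and miR167j on chromosome 1 (32686181 to 32686202, minus strand). The 2 other miR167 loci, which carry no letter, lay on chromosome 12 (25476821 to 25476841, plus strand) and chromosome 3 (30547053 to 30547073, minus strand). miR390 lay on chromosome 3 (34275192 to 34275212, minus strand) and miR393a on chromosome 1 (2309233 to 2309253, minus strand). Some sequences matched the genome at more sites than the loci listed, namely miR160a/b at 4 sites, miR164b/f at 3 and miR393a at 2. Their reads could therefore have come in part from other sites. No gene annotation of this genome build was used here, so exons and introns of host transcripts are not stated.

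A read count is the number of reads of exactly that sequence, and RPM is that count per 1000000 reads used for miRNA prediction. The reads used numbered 6887961 (CR), 12126876 (TR), 13116913 (CS) and 9765004 (TS). One read was therefore worth 0.145, 0.0825, 0.0762 and 0.102 RPM, respectively. A listed sequence had 2 or more reads and a hairpin accepted by the authors' prediction. Absence from the entries used here is therefore not a count of 0, and no fold was formed for it. Each hairpin had 1 listed sequence per library, so reads of other length forms from the same hairpin are not counted. For a sequence listed in both libraries of a pair, the RPM ratio was given an exact conditional (Clopper-Pearson) 95% interval. It was called higher at a ratio of at least 2, or lower at 0.5 or less, where the interval excluded 1. Since every condition had 1 library, no replicate check and no p-value could be given, each ratio compares libraries and not conditions, and all intervals and limits cover counting error only.

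The members were minor components of every library. Their 178, 221, 841 and 715 reads in CR, TR, CS and TS made up 0.552%, 0.581%, 2.96% and 2.55% of the reads of all sequences with a family label. Their share of those reads was higher in both shoot libraries than in both root libraries, and the exact intervals of root (0.474% to 0.662% over both) and shoot (2.36% to 3.16% over both) did not overlap. These sums count the forms that each list holds. Of the 841 reads in CS, 616 were a miR167 form not listed in root. Over sequences listed in both tissues alone, the RPM ratio of all members was 1.03 in CS over CR, in place of 2.48. In TS over TR it was 6.74, in place of 4.02. miR167 was the most abundant family of the 5 in each library, with 122, 173, 637 and 271 reads. Its main form held rank 9 of 31 conserved sequences in CR, rank 8 of 26 in TR, rank 6 of 37 in CS and rank 10 of 39 in TS.

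**Figure D1:**
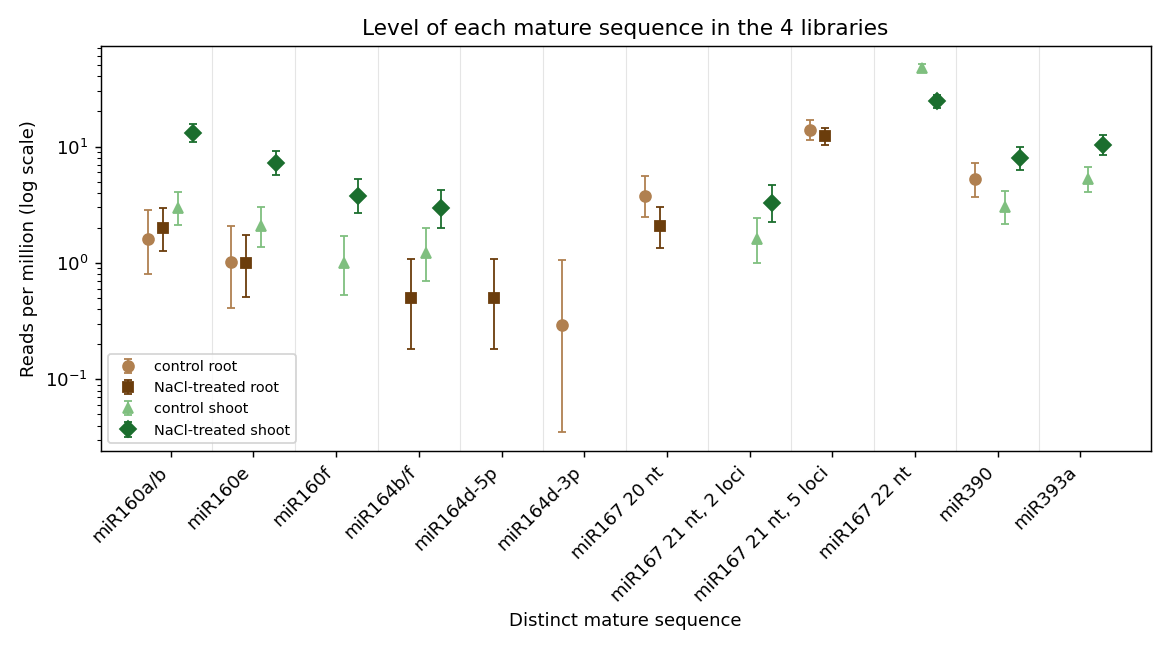
RPM of each of the 12 mature sequences (log axis) in CR, TR, CS and TS, with exact Poisson 95% intervals for counting error and no symbol where a sequence was not listed. The 4 miR167 forms separate root from shoot, and the miR160 sequences are highest in TS at 13.1, 7.27 and 3.79 RPM.

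NaCl-treated shoot against control shoot was the comparison with the most members that could be compared. All 8 member sequences of shoot were listed in both libraries, and 6 were called higher in TS and none lower, against 22.9% called higher and 7.29% called lower among the 96 sequences listed in both. The median log2 ratio was 1.34 over the 8 members, 0.76 over 16 sequences of 10 other families that target transcription factors, 0.53 over all 24 other conserved sequences and 0.43 over all 96. The lists were described by these counts and medians alone.

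miR160, the family aimed at repressing ARFs, had the highest ratios. miR160a/b had 11, 24, 39 and 128 reads in CR, TR, CS and TS, or 1.60, 1.98, 2.97 and 13.1 RPM. miR160e had 7, 12, 27 and 71 reads in the same order, or 1.02, 0.990, 2.06 and 7.27 RPM. miR160f was listed in shoot alone, with 13 reads in CS and 37 in TS. In RPM, TS was the highest library for each of these 3 sequences. For the pair listed in root, the RPM of CR and TR differed little, on 7 to 24 reads. With other denominators, the TR over CR ratio of miR160a/b ran from 1.30 to 2.06 and that of miR160e from 1.02 to 1.62. The TS over CS ratio was 4.41 (3.06 to 6.48) for miR160a/b, 3.53 (2.24 to 5.72) for miR160e and 3.82 (1.99 to 7.84) for miR160f. The 3 intervals overlapped widely, and each sequence held much the same part of the family in both libraries. miR160a/b had 49.4% of the miR160 reads of CS (37.9% to 60.9%) and 54.2% of those of TS (47.7% to 60.7%), and miR160f had 16.5% and 15.7%. The family summed to 79 and 236 reads in CS and TS, which gave a ratio of 4.01 (3.10 to 5.25). This ratio was 1.94 with TMM scaling, which ended the call, and 3.32 to 5.87 with the 5 other denominators tried.

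The remaining families of shoot, apart from miR167, also lay above 1. miR390, the TAS3 trigger, had 36 reads in CR, 40 in CS and 78 in TS and was not among the TR entries. Its TS over CS ratio was 2.62 (1.77 to 3.94). miR164b/f, of the family aimed at NAC transcripts, was not among the CR entries. It had 6, 16 and 29 reads in TR, CS and TS, and its TS over CS ratio was 2.43 (1.28 to 4.80). Both ratios met the rule, and both lost the call with TMM scaling, at 1.26 and 1.18. miR393a, aimed at the auxin receptors, was listed in shoot alone with 69 reads in CS and 101 in TS. Its ratio of 1.97 (1.43 to 2.71) lay just outside the 2-fold rule, was 2.88 per listed read and turned to 0.949 with TMM scaling.

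miR167, the family aimed at activating ARFs, was divided in shoot. The 22 nt form of the 5 loci had 616 reads in CS and 239 in TS, or 47.0 and 24.5 RPM, a ratio of 0.521 (0.447 to 0.606). It was the only member of the 8 with a ratio below 1, it missed the rule at 0.5 narrowly, and it was called lower under 5 of the 6 other denominators. The 21 nt form of the 2 other loci had 21 reads in CS and 32 in TS, and its ratio of 2.05 (1.14 to 3.73) was called higher, but it fell under 2 with 5 of the 6 other denominators and turned to 0.988 with TMM scaling. The minor form thus held 3.30% of the listed miR167 reads of CS (2.05% to 5.0%) and 11.8% of those of TS (8.22% to 16.3%), and these shares do not depend on the denominator.

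**Figure D2:**
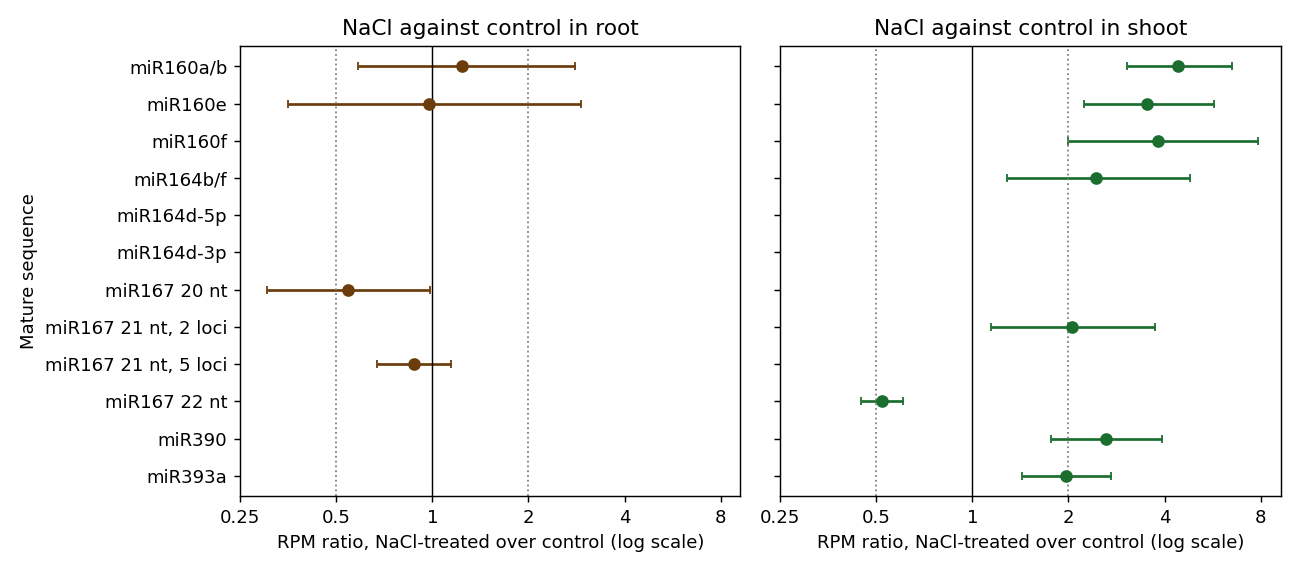
RPM ratio of NaCl-treated over control (log axis) for each member listed in both libraries of root (left) or shoot (right), with exact 95% intervals. The dotted lines mark 0.5 and 2. In root the 4 ratios lie between 0.546 and 1.24, and in shoot 7 of 8 lie above 1 and the 22 nt form of miR167 lies at 0.521.

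The balance between the families can be read within a library, where the denominator cancels. In CS there were 0.124 miR160 reads for each miR167 read, and in TS there were 0.871, an odds ratio of 7.01 (exact interval 5.20 to 9.52). In root the same balance was 0.148 in CR and 0.208 in TR, an odds ratio of 1.41 (0.739 to 2.77). Against miR167, the odds ratio of TS over CS was 4.58 (3.0 to 7.07) for miR390, 4.25 (2.19 to 8.53) for miR164 and 3.44 (2.42 to 4.90) for miR393. All 4 other families thus gained on miR167 in TS beyond counting error. The 4 odds ratios share the same miR167 counts, so they are not separate results. Among those 4 families, miR160 gained on miR393 (odds ratio 2.04, 1.34 to 3.10), and its gains on miR390 (1.53, 0.939 to 2.48) and on miR164 (1.65, 0.791 to 3.33) had intervals that included 1. As a share of all member reads, miR167 made up 75.7% in CS and 37.9% in TS, and miR160 9.39% and 33.0%. These odds ratios were chosen after the data had been seen.

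The denominator moved all sequences of a library pair together. Over the 7 denominators, the median log2 ratio of the sequences listed in both libraries ran from -0.62 to 0.98 in shoot and from -0.32 to 0.42 in root. Set against that median, the log2 ratio in shoot was higher by 1.58 for miR160, by 0.96 for miR390, by 0.86 for miR164 and by 0.55 for miR393, and it was -1.23 for miR167. With the 7 denominators, 5 of the 8 sequences stayed above 1 in shoot, and miR160a/b was the 1 sequence called higher with each of them.

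**Figure D3:**
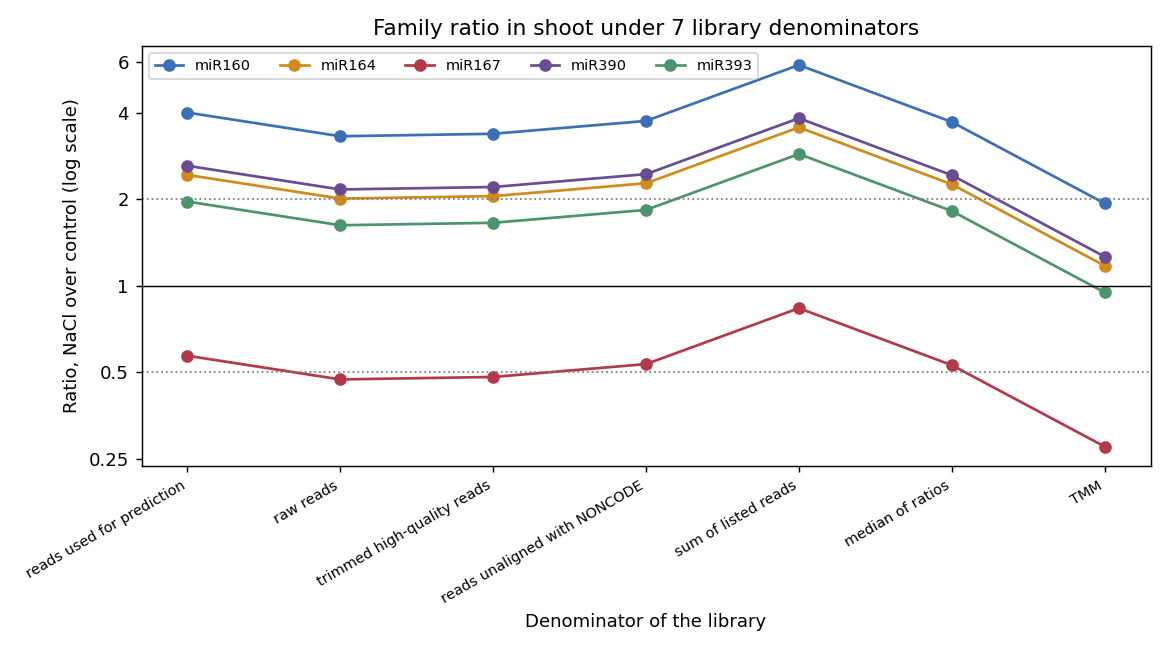
Ratio of NaCl-treated over control shoot (log axis) for the summed reads of each of the 5 families, with 7 library denominators on the x axis. The dotted lines mark 0.5 and 2. miR160 is the highest family and miR167 the lowest with each denominator, and TMM gives the lowest values, from 0.276 for miR167 to 1.94 for miR160.

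In root, 4 member sequences were listed in both libraries and none was called in either direction, against 10.9% called higher and 13.0% called lower among the 46 sequences listed in both. The median log2 ratio of the 4 was -0.12, beside -0.32 over the 46. miR160a/b was at 1.24 (0.584 to 2.80) in TR over CR, and at 1.30 to 2.06 with the 6 other denominators, without a call. miR160e was at 0.974 (0.353 to 2.92), and above 1 with each of the 6 other denominators. The 21 nt miR167 form of the 5 loci went from 96 to 148 reads, with a TR over CR ratio of 0.876 (0.673 to 1.14) that ran from 0.919 to 1.46 with the other denominators. The 20 nt miR167 form had 26 and 25 reads, a ratio of 0.546 (0.303 to 0.984), the lowest of the 4 and short of the rule. The intervals of both miR160 ratios were wide, since they rested on 7 to 24 reads.

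Of the 6 member sequences in each root library, 2 were absent from the other library's entries, beside 62.3% of all 122 sequences of CR and 79.5% of all 224 of TR. miR390 was among the CR entries with 36 reads and miR164d-3p with 2 reads, and neither was among the TR entries. miR164b/f and miR164d-5p had 6 reads each in TR and were not among the CR entries. No ratio of a single sequence was formed for these 4, and 3 to 5 lines of each list had no content. Family sums count such sequences in the library that lists them, so the miR164 sum, 12 reads in TR over 2 in CR (3.41, 0.759 to 31.4, not called), shares no sequence between the libraries and sets 5p sequences against a 3p sequence.

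With the deposited RPM, the ratios of miR160 differed between the tissues. The log2 ratio of shoot minus that of root was 1.82 (0.93 to 2.72) for the miR160 family, 1.83 (0.68 to 2.98) for miR160a/b and 1.86 (0.37 to 3.35) for miR160e, with intervals from the 4 read counts. The family difference was smaller and missed a 2-fold difference with TMM (0.63), raw reads (0.81) and trimmed reads (0.87). That of miR160a/b was 0.64 with TMM and 0.82 with raw reads, and that of miR160e 0.66 and 0.85. No intervals are given for these other denominators, so a tissue difference beyond counting error is not shown with them. For the 5 loci of miR167 the difference was -0.75 (-1.18 to -0.32) and for the 2 other loci it was 1.91 (0.78 to 3.03), which became 0.71 with TMM, 0.90 with raw reads and 0.95 with trimmed reads. The first of these compared the 21 nt form of root with the 22 nt form of shoot, and the second compared the 20 nt form with the 21 nt form.

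Without NaCl, 3 member sequences were listed in both tissues and none was called, against 22% called higher in shoot and 14% called lower among 50. miR160a/b was at 1.86 (0.935 to 4.03) in CS over CR, miR160e at 2.03 (0.861 to 5.51) and miR390 at 0.583 (0.363 to 0.942). Both miR160 sequences were called higher in CS with 3 of the 6 other denominators, at up to 3.09 and 3.36. With NaCl, all 3 members listed in both tissues were called higher in TS than in TR, against 31.9% called higher and 17.0% called lower among 47. The TS over TR ratio was 6.62 (4.26 to 10.7) for miR160a/b, 7.35 (3.96 to 14.9) for miR160e and 6.0 (2.45 to 17.7) for miR164b/f. These 3 calls held with each of the 6 other denominators. Of the miR160 family sum, the shoot over root ratio was 2.30 (1.37 to 4.09) without NaCl and 8.14 (5.72 to 11.9) with it, sums that include miR160f in shoot alone.

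The form of miR167 that was listed separated the tissues completely. At each of the 7 miR167 hairpins, all of them listed in the 4 libraries, root and shoot carried different sequences, and CR and TR carried the same sequence, as did CS and TS. The 5 loci gave the 21 nt form in root and the 22 nt form in shoot, and the 2 other loci gave the 20 nt form in root and the 21 nt form in shoot. The shoot form was 1 base longer at its 3′ end in each case, and the 5′ end and the seed were the same. Of the 12 member hairpins listed in both CR and CS, 7 carried another sequence, which were the miR167 hairpins, and the same 7 of 13 did so between TR and TS. A sequence is listed at each of its loci, so these 7 hairpins hold 2 pairs of sequences and are not 7 separate observations. Over all hairpins listed in both tissues, 22.8% carried another sequence without NaCl and 28.8% with it. For other conserved families this was 5 of 38 and 5 of 37, and for hairpins without a family label 11 of 51 and 18 of 54. The lists do not give the reads of the second form in either tissue, so how completely the forms were exchanged cannot be read from them.

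Taken by locus, the sequence of the 5 loci had 96, 148, 616 and 239 reads in CR, TR, CS and TS. It was 3.37-fold (2.71 to 4.22) higher in CS than in CR and 2.01-fold (1.63 to 2.48) higher in TS than in TR, and the second value fell to 0.908 with TMM scaling. The sequence of the 2 other loci had 26, 25, 21 and 32 reads, a CS over CR ratio of 0.424 (0.227 to 0.784) that met the rule with 3 of the 6 other denominators, and a TS over TR ratio of 1.59 (0.913 to 2.80). These are ratios of unlike forms. The 20 nt form matched the genome at 10 sites, the 21 nt form of the 5 loci at 7, the 22 nt form at 5 and the 21 nt form of the 2 loci at 3. Reads of the 20 nt form could therefore have come from either group of loci.

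The miRNA* told the miR167 loci apart, since the 5 loci that share 1 mature sequence had different miRNA* sequences. The most abundant miRNA* of each locus is shown because, unlike the mature sequence, it was found in 1 hairpin of the family. No part of these sequences is in capitals.
miR167d miRNA*: gatcatgctgtgcagtttcatc
miR167g miRNA*: agatcatccggcagcttcatc
miR167h miRNA*: aggtcatgctgtagtttcatc
miR167j miRNA*: gatcgtgctgcgcagtttcatc
The miR167h hairpin (chromosome 12, 25480611 to 25480744, plus strand, 134 nt) is shown with its 22 nt mature sequence and its main miRNA* in capitals, at bases 17 to 38 and 98 to 118.
miR167h hairpin: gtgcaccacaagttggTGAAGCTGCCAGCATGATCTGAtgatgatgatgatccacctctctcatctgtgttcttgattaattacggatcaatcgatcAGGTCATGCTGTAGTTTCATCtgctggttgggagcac

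miR167h gave the most miRNA* reads of the 5 loci in each library, namely 5, 10, 83 and 74 in CR, TR, CS and TS. miR167d followed in shoot with 13 in CS and 30 in TS, beside 3 in CR and 2 in TR. miR167j had 2, 4, 0 and 1 miRNA* reads and miR167g 0, 3, 0 and 3 in the same order. No miRNA* read was recorded for miR167f in any library, although its hairpin was listed with the full mature count in all 4. Of the 96 miRNA* reads of CS, 86.5% (78.0% to 92.6%) were from miR167h, and a locus with 0 of 96 could have had a share of up to 3.77%. In root, where there were 10 and 19 miRNA* reads in all, miR167h held 5 of the 10 in CR (18.7% to 81.3%) and 10 of the 19 in TR (28.9% to 75.6%).

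The miRNA* reads of miR167h were 8.72-fold (3.59 to 27.6) higher in CS than in CR and 9.19-fold (4.73 to 19.95) higher in TS than in TR. With NaCl they stood at 1.20 (0.863 to 1.66) in shoot and 1.14 (0.354 to 4.24) in root. Those of miR167d were 3.10-fold (1.57 to 6.47) higher in TS than in CS. These miRNA* ratios used the deposited RPM alone, and other denominators were not tried for them. Per miR167h miRNA* read there were 0.157 miR167d miRNA* reads in CS and 0.405 in TS, an odds ratio of 2.58 (1.20 to 5.81) that does not depend on the denominator. Within the 5 loci, the miRNA* of miR167d thus gained on that of miR167h in TS.

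**Figure D4:**
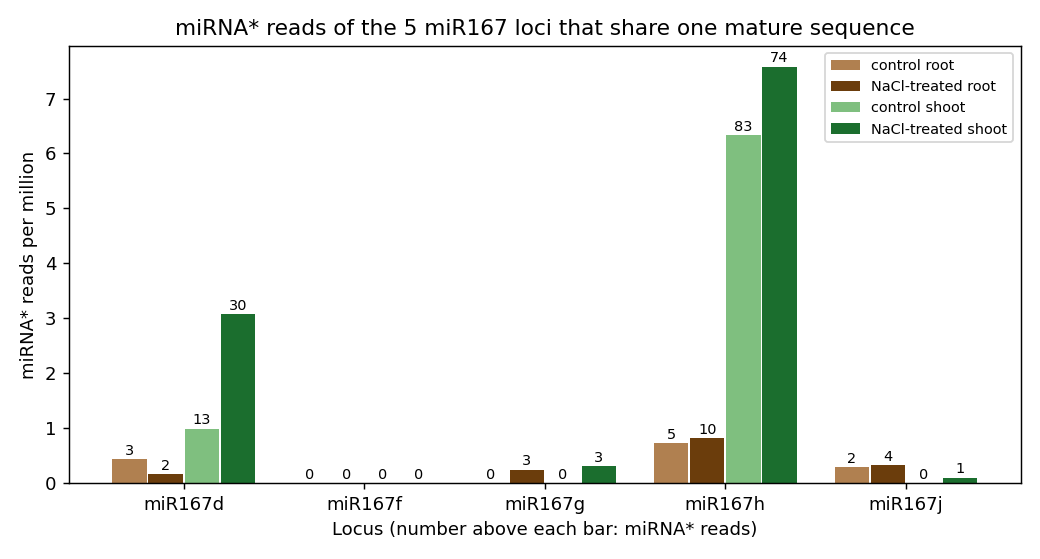
miRNA* reads per 1000000 reads used at the 5 miR167 loci that share a mature sequence, in CR, TR, CS and TS, with the read count above each bar. miR167h leads in each library, with 83 reads in CS and 74 in TS, miR167d had 30 in TS, and miR167f had none.

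The 22 nt mature reads and the miRNA* reads of the 5 miR167 loci moved apart in shoot. While the 22 nt mature sequence went from 616 to 239 reads, the miRNA* reads of its 5 loci went from 96 to 108. The miRNA* share of miRNA and miRNA* reads was 13.5% (11.1% to 16.2%) in CS and 31.1% (26.3% to 36.3%) in TS, an odds ratio of 2.90 (2.09 to 4.01). It was 9.43% (4.62% to 16.7%) in CR and 11.4% (6.99% to 17.2%) in TR, with an odds ratio of 1.23 (0.518 to 3.10). TS therefore stood apart from the other 3 libraries, whose intervals overlapped. Counting the most abundant miRNA* of each locus alone gave 12.7% in CS and 30.5% in TS. Both shoot libraries listed the 22 nt form, so the share compares the same mature sequence. Mature reads of other lengths from these hairpins are not in the lists, while miRNA* reads of every recorded length were counted. Whether the mature reads changed in length between CS and TS was not tested.

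The other families had few miRNA* reads. miR160 had 1 miRNA* read beside 236 mature reads in TS, a share of 0.422% (0.0107% to 2.33%). In CS it had 2 beside 79, a share of 2.47% (0.300% to 8.64%). The intervals overlapped, and the odds ratio of TS over CS was 0.169 (0.00283 to 3.28). Between CS and TS, these miRNA* counts are too low to tell whether miRNA* rose with the mature level. In root, miR160 had 1 miRNA* read beside 18 mature reads in CR and 4 beside 36 in TR. The TR share was 10% (2.79% to 23.7%). The odds ratio of TS over TR was 0.0389 (0.000771 to 0.407), on 1 and 4 miRNA* reads and with miR160f listed in shoot alone. miR160a and miR160b had an identical miRNA*, which was counted once. miR164 had none beside 16 mature reads in CS and 10 beside 29 in TS, a share of 25.6% (13.0% to 42.1%). Of these 10, 7 were from miR164f, whose hairpin was not among the CS entries, and 3 from miR164b. miR390 had 4 miRNA* reads in CR, 2 in CS and 6 in TS, all of 1 sequence, at shares of 10%, 4.76% and 7.14% with overlapping intervals. miR393a had no miRNA* read beside 69 and 101 mature reads, which allows shares of up to 5.21% and 3.59% by the exact intervals.

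**Figure D5:**
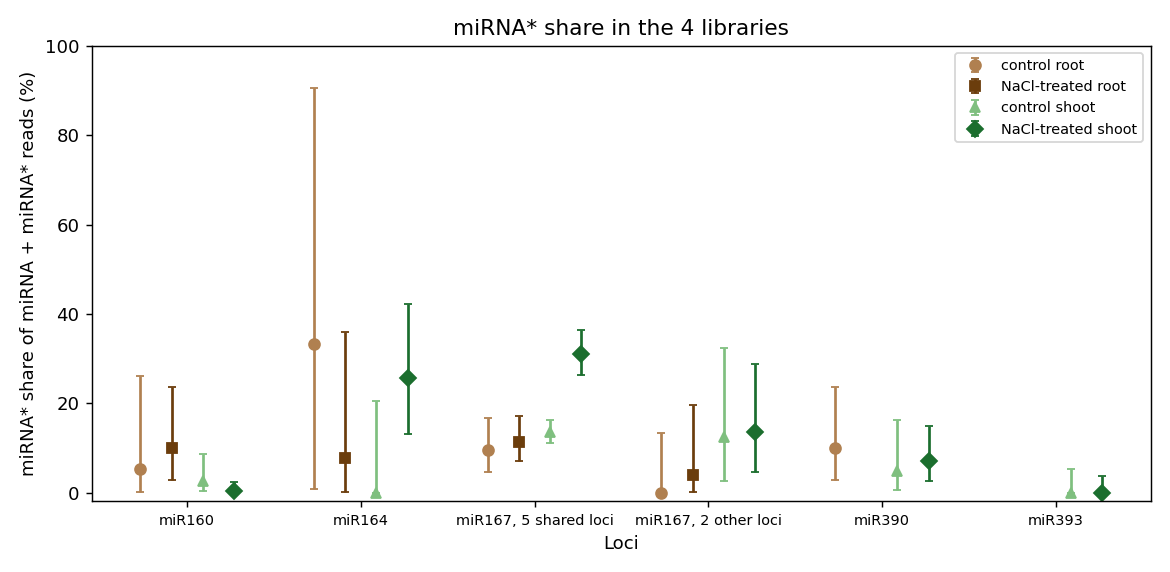
miRNA* share of miRNA and miRNA* reads in percent for 6 sets of loci in CR, TR, CS and TS, with exact 95% intervals. The 5 miR167 loci stand at 31.1% in TS and between 9.43% and 13.5% in the other libraries, and miR160 is at 0.422% in TS.

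At miR164d the arm that was listed as the mature strand differed between the root libraries. In CR the 3p sequence was listed with 2 reads and a sequence of the 5p arm was recorded as its miRNA* with 1 read. In TR the 5p sequence was listed with 6 reads and the same 3p sequence was recorded as miRNA* with 1 read. The counts are too low to tell the arm shares of the libraries apart. The 5p read of CR began at base 16 of the hairpin and the 5p sequence of TR at base 19, so they had different seeds. The hairpin (chromosome 2, 33143559 to 33143667, minus strand, 109 nt) is shown to place both arms, with the 5p and 3p sequences in capitals.
miR164d hairpin: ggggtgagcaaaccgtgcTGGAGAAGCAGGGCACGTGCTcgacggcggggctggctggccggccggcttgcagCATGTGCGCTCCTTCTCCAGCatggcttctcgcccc

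The hairpins of the members were like those of other conserved families in the deposited fold values. The 18 distinct hairpins as listed were 82 to 192 nt long with a median of 109 nt, beside 115 nt over 65 hairpins of other conserved families and 114 nt over 805 hairpins without a family label. The shortest was miR390 and the longest miR164f. Median G+C was 53.0%, beside 49.7% and 38.5%, and ran from 41.4% at miR167j to 72.9% at miR164f. The median of the lowest folding energy of each hairpin was -61.8 kcal/mol, beside -61.1 and -52.5 kcal/mol. Of the 58 member entries, 33 had miRNA* reads (56.9%), as did 50.8% of the entries of other conserved families and 12.8% of those without a family label.

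Fold values of a locus could differ between the lists. The 97 nt hairpin of miR167f was given -46.9 kcal/mol in CR and -30.1 kcal/mol in TR, with fold p-values of 0.0099 and 0.0198 from the prediction tool, and the 99 nt hairpin of shoot was given -48.5 kcal/mol. miR160e was given -63.1 kcal/mol in TR and -58.7 kcal/mol in the 3 other lists. Leaving out hairpins with a fold p-value over 0.01 changed no count of called members. No entry outside the families lay in a member hairpin on either strand, and none differed from a member by up to 2 edits or by its ends alone.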

How the data were processed

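Small RNA libraries of Pokkali rice seedlings, 1 for each tissue and treatment, were sequenced single-end on an Illumina instrument. The authors trimmed and filtered the reads (cutadapt, NGS QC Toolkit, UEA Small-RNA Workbench), removed other RNA classes, searched miRBase and mapped to the rice genome. The stem-loops shown in the study were drawn with mFold. Versions of the trimming tools were not found in the labels or the methods. The deposited lists give a read count for each mature sequence, repeated at each locus, the RPM (count per 1000000 of the reads used) and its log2 value. The deposited hairpin values are lengths, a folding energy score, G+C in percent and a fold p-value. Lines without content (3 to 5 per list) were left out. Reads used were recovered as count over RPM.

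Ratios, exact Clopper-Pearson intervals and odds ratios were computed with Python 3.11.15 and scipy 1.17.1, and TMM factors with edgeR 4.0.16 (R 4.3.3) over the 29 sequences listed in all 4 libraries. The TMM denominator of a library was the summed reads of those 29 sequences times its factor, in place of the reads used. miR160a/b and miR160e were among the 29. The call rule was tried on simulated Poisson counts, for pairs with at least 10 reads in both libraries. Those counts held counting error alone, so they do not cover lower counts or differences between plants or libraries. Alternatives were 6 other denominators (read totals at other steps, listed reads, median of ratios, TMM), a 1.5-fold rule, a minimum of 10 reads, a fold p-value of at most 0.01 and family sums over shared sequences. Each family and sequence is named. The members and lists were chosen with earlier results of these data known.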

Additional observations from a re-analysis of the deposited data

Results flagged for a closer look

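The log2 ratio of NaCl-treated over control lay below 0 in root and above 0 in shoot for 3 results, so that shoot minus root was 1.86 for miR160e (root -0.04, shoot 1.82), 1.91 for the 2 other miR167 loci (root -0.87, shoot 1.03) and 0.70 for the sum of all members (root -0.50, shoot 0.19). The differences carry intervals from the counts but no p-value, with 1 library per condition. The root value of miR160e lay above 0 with each of the 6 other denominators, and the difference for all members turned to -0.31 with raw reads, -0.26 with trimmed reads, -0.08 with NONCODE-unaligned reads and -0.50 with TMM. The sum of all members includes sequences listed in 1 root library alone, and over shared sequences its root ratio was 0.848 in place of 0.705.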

How the results depend on the processing

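No paired analysis was possible because each condition had 1 library and the labels give no replicate numbers. In shoot with NaCl, the count of members called higher was 1 in place of 6 with TMM, and the count called lower was 1 in place of 0 with raw reads, trimmed reads, NONCODE-unaligned reads, median of ratios, TMM and the 1.5-fold rule. In root, 1 member was called lower with the 1.5-fold rule. In CS over CR, 2 members were called higher with raw, trimmed and NONCODE-unaligned reads, and 1 was called lower with median of ratios and with the 1.5-fold rule. For TS over CS, TMM gave 1.94 for miR160, 1.18 for miR164, 1.26 for miR390, 0.949 for miR393 and 0.276 for miR167. The miR167 ratio was 0.473 with raw reads, 0.482 with trimmed reads and 0.837 per listed read, and that of miR393 was 2.88 per listed read and 3.44 per miR167 read. The miR164 sums of CR share no sequence with those of TR or CS, so their ratios compare unlike sequences. For TR over CR, miR164 stood at 3.41 with the deposited RPM, at 5.68 with raw, 5.56 with trimmed and 5.44 with NONCODE-unaligned reads and at 4.99 per listed read, and miR167 at 1.34, 1.31, 1.29 and 1.18. For CS over CR, miR164 stood at 4.20 (0.988 to 37.7, not called) with the deposited RPM, at 6.96, 6.47, 6.41 and 4.38 in the same order and at 4.35 with TMM. There, miR160 was 1.93 with median of ratios, 1.93 over shared sequences and 0.841 per miR167 read, and miR390 was 0.967 with raw reads, 0.489 with median of ratios and 0.213 per miR167 read. For TS over TR, miR164 was 1.36 with TMM and 1.54 per miR167 read, and miR167 was 1.60, 1.55 and 2.03 with raw, trimmed and listed reads, 1.44 with median of ratios and 0.881 with TMM. The difference between tissues was 0.81, 0.87 and 0.63 for miR160 with raw reads, trimmed reads and TMM, and -1.51, -1.45, -1.27 and -1.69 for miR167 with raw, trimmed and NONCODE-unaligned reads and TMM. With TMM, the miR167 ratio also turned to 0.988 for the 2 other loci in shoot and to 0.908 for the 5 loci in TS over TR. The cause of these changes was not tested. The ratios per miR167 read and the miRNA* share of the most abundant miRNA* were chosen after seeing the data.

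Counts under 10 reads limited miR160e in CR and miR164 in both root libraries, and the lists hold 1 form per hairpin. With 1 library per condition, differences between plants, extractions or libraries cannot be told apart from the treatment or tissue.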
